A study of Mus musculus with 16 samples.

Results

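Transcripts of 8 chemokine receptor genes were followed in myeloid cells sorted from mouse lungs bearing tumours: Ccr1, Ccr2, Cx3cr1, Ccr6, Ccr7, Cxcr4, Cxcr3 and Ccrl2. The genes were given by symbol, and each was read from the array probe set that the platform annotation assigns to that symbol alone. All 8 had exactly 1 such probe set, and together they are 8 of the 19938 genes tested. The cells were labelled CD11b+ DCs (dendritic cells) and had been isolated by flow cytometry on the surface proteins CD11c, MHC class II and CD11b, all present. The comparison asked how such cells in a tumour differ from those in adjacent lung. It set 8 arrays of cells from tumoral lung tissue against 8 arrays of cells from peritumoral lung tissue. Both groups came from C57BL/6 mice whose airways had been inoculated with LLC (Lewis lung carcinoma), a transplantable lung tumour line of the same strain, so that lung without a tumour is not represented. The labels used here give no animal, pool of animals, age, sex or time after inoculation for an array. The p-values therefore rest on the spread among the arrays of a group, and that spread may be technical.

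Chemokine receptors are G protein-coupled receptors through which leukocytes read gradients of secreted chemokines and move towards them. On myeloid cells of the lung, CCR2 guides monocytes out of the bone marrow and into inflamed tissue, CX3CR1 is carried by monocytes and many of their descendants, and CCR7 takes maturing dendritic cells to the draining lymph node. CCRL2 belongs to the atypical receptors, which bind a ligand without the usual G protein signal.

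All values are the deposited array values, read as log2 expression, and all differences are tumoral minus peritumoral on that scale. Tumoral 1 to 8 and peritumoral 1 to 8 are the numbers in the labels. Probe sets differ in how brightly they report a transcript, so levels were not ranked between genes. As a guide to dim values, the 1027 olfactory receptor genes (Olfr symbols), which these cells are not known to use, had mean values of 3.27 at their 5th percentile and 6.40 at their 95th. The mean of Ccr6 over 16 arrays (6.68) lay at the 97.0th percentile of those genes and that of Cxcr3 (6.996) at the 98.4th. Both therefore sat close to the dim range. The other 6 receptors lay above every Olfr gene.

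Before any comparison, some arrays stood apart in ways that the labels do not describe. The deposited table was divided into 3 sets by the place of an array in each run of 3 columns. The third set (tumoral 1, 4 and 7 and peritumoral 3 and 6) had values wholly outside the range of the other 11 arrays in 2385 genes, 717 lower (3.60% of genes tested) and 1668 higher (8.37%). The first set (tumoral 2, 5 and 8, peritumoral 1, 4 and 7) did so in 2.39% of genes and the second (tumoral 3 and 6, peritumoral 2, 5 and 8) in 0.0301%. In the third set 5 of 10 conventional dendritic cell markers were below the range of the other 11 and 4 of 11 tested general macrophage markers above it. Also below it were 4 of 10 lung epithelium and 3 of 7 tested B cell markers, but 0 of 8 type 1 dendritic cell markers. What the deposited order stands for is not given in the sources used here. The genes of the sort were bright in both groups: Itgax (CD11c), Itgam (CD11b) and H2-Ab1 (MHC class II) averaged 11.62, 11.31 and 13.25 in tumoral arrays, against 11.47, 11.22 and 13.21 in peritumoral arrays, with adjusted p-values of 0.508, 0.888 and 0.818 in limma. Peritumoral 4 and, less so, peritumoral 7 also stood apart. The mean centred value of peritumoral 4 was the highest of all arrays for endothelium (3.52), B cell (2.18), fibroblast (2.04), lung epithelium (1.89), NK cell (1.61), alveolar macrophage (1.37), neutrophil (1.27), T cell (1.21) and keratin and carcinoma cell (1.20) markers, and the lowest for the list of general macrophage markers (-0.67) and for the genes of the sort and of haematopoietic cells (-0.33). Peritumoral 7 came next for endothelium (1.33) and fibroblast (0.59) markers. Results on the receptors are therefore given with and without peritumoral 4, and with the set held constant as a block.

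**Figure D1:**
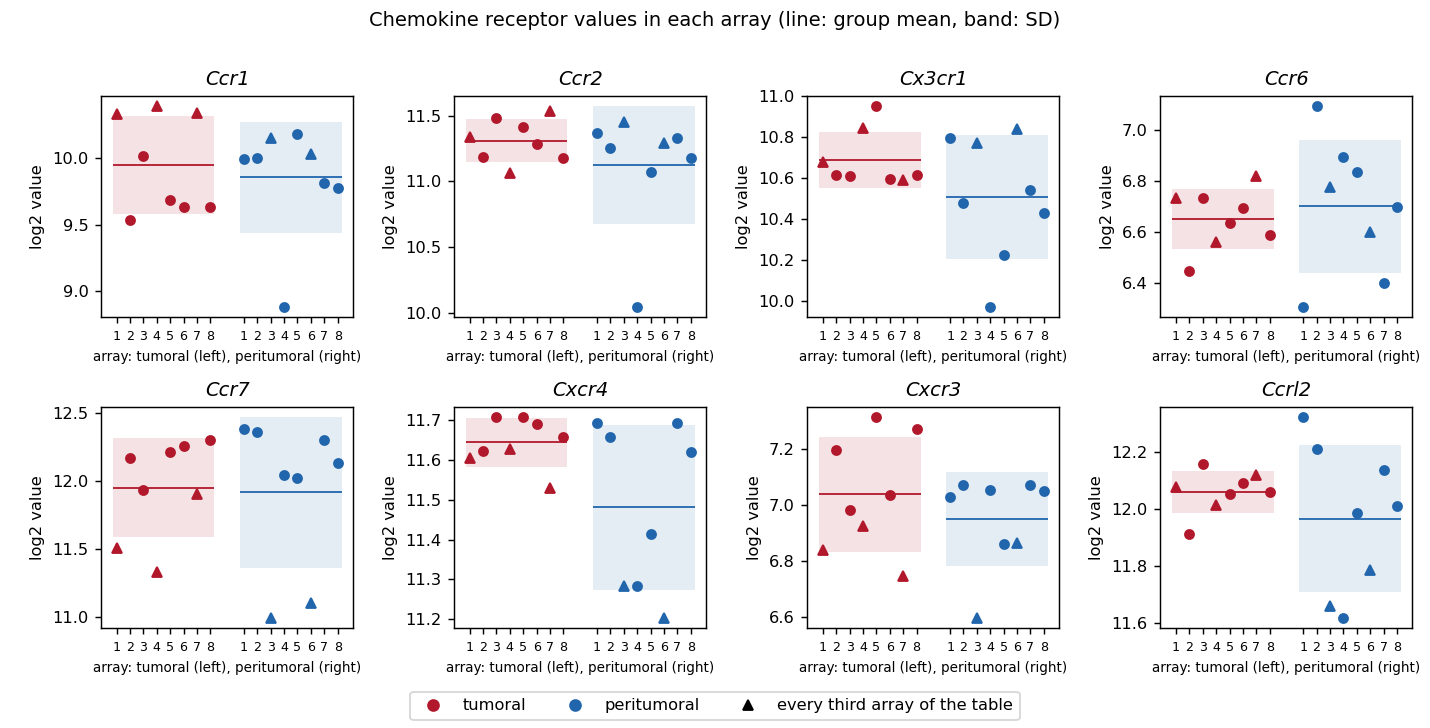
Log2 value of each receptor (vertical axis, log2, a separate scale for each gene) in tumoral 1 to 8 (red, left) and peritumoral 1 to 8 (blue, right). Lines are group means and bands 1 SD with n = 8. Triangles mark the third set, the arrays at the last place of each run of 3 in the deposited table. Their Ccr7 values of 10.99 to 11.90 lie below all circles, and peritumoral 4 is the lowest array for Ccr1 (8.88) and Ccr2 (10.04).

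None of the 8 receptors differed between tumoral and peritumoral cells beyond the spread of the arrays. By limma (tumoral minus peritumoral, Benjamini-Hochberg adjustment over all genes), 0 of the 8 passed an adjusted p of 0.05, where 0% of all 19938 genes did, and 0 passed an unadjusted p of 0.05, where 11.5% of all genes did. The tumoral mean was higher for 7 of the 8, against 41.7% of all genes, and lower for Ccr6. Without peritumoral 4 the tumoral mean was lower for Ccr1 as well. The ranges of the labels overlapped for all 8 receptors, and 0.0853% of all genes had ranges that did not. The differences ran between -0.05 and 0.19, and the median difference of all genes was -0.02. Over the genes above the median mean, which include every receptor but Ccr6 and Cxcr3, that median was 0.01. The share of all genes is therefore not a close match for these receptors. In bulk samples such as these, fewer cells of a type and less RNA per cell cannot be told apart.

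**Figure D2:**
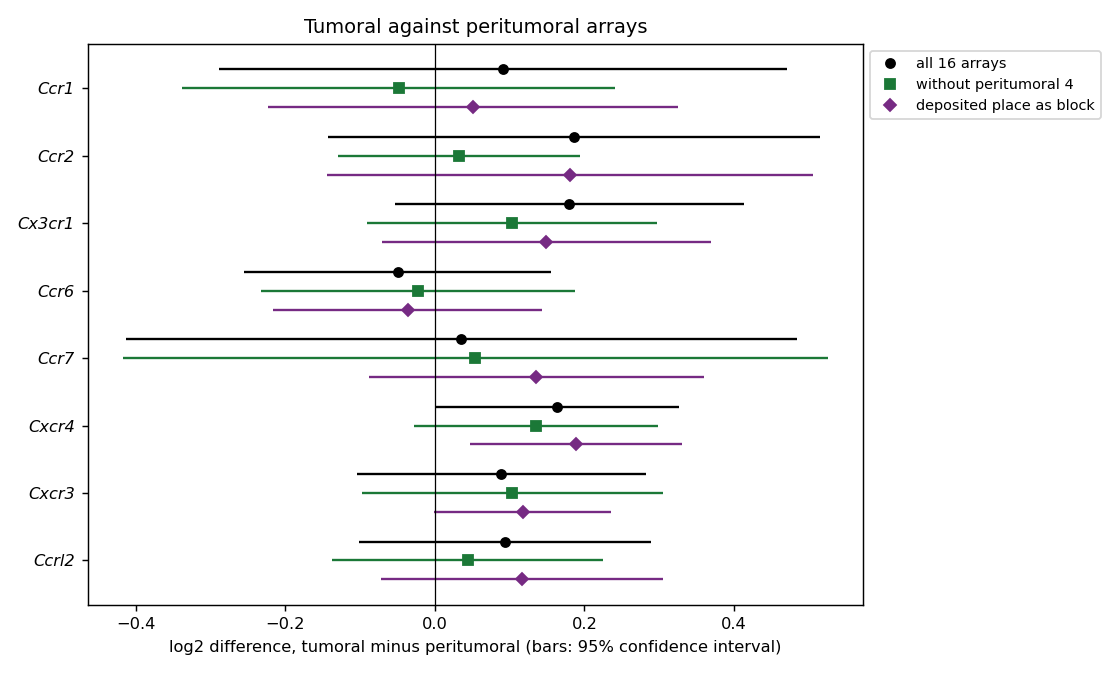
Difference of each receptor between tumoral and peritumoral arrays (horizontal axis, log2; bars, 95% confidence intervals from limma) over all 16 arrays (black circles), without peritumoral 4 (green squares) and with the 3 sets of deposited places as a block (purple diamonds). Every interval over all arrays includes 0. Cxcr4 lies farthest from 0 relative to its error, at 0.16 over all arrays and 0.19 with the block.

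The receptors of monocytes and their descendants come first. Ccr2, the receptor for CCL2 that brings monocytes into tissue, measured 11.34, 11.19, 11.48, 11.07, 11.41, 11.29, 11.53 and 11.18 in tumoral 1 to 8. In peritumoral 1 to 8 it measured 11.37, 11.25, 11.45, 10.04, 11.07, 11.29, 11.33 and 11.18. Peritumoral 4 was more than a log2 unit below every other array, and the other 15 were close together in both groups. The means were 11.31 ± 0.16 in tumoral and 11.12 ± 0.45 in peritumoral arrays (SD, n = 8 each), a difference of 0.19 (95% confidence interval -0.14 to 0.52; limma adjusted p = 0.667; exact permutation p = 0.335). Without peritumoral 4 the difference was 0.03, the exact permutation p was 0.671, and the SD of the peritumoral arrays was 0.13. The SD of Ccr2 over the arrays stood at percentile 88.8 of all genes with that array and at percentile 32.1 without it. The general macrophage marker list (11 of 12 genes tested) had summed levels of 123.0 to 131.0 in tumoral arrays and 118.0 to 129.4 in peritumoral arrays, the lowest in peritumoral 4. Other myeloid lists were divided in that array. Monocyte markers (11 of 14 tested) ran from 108 to 111 in tumoral and from 107 to 117 in peritumoral arrays, with peritumoral 4 the second highest of all arrays. Alveolar macrophage markers (9 of 10 tested) ran from 69.4 to 74.8 and from 67.1 to 85.3, with peritumoral 4 the highest. The mean centred value of peritumoral 4 was also high for neutrophil markers (1.27). It was below 0 for conventional dendritic cell markers (-0.32) and 0.05 for type 1 dendritic cell markers. The part of these lists in the Ccr2 value was not tested.

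Ccr1, a receptor for CCL3, CCL5 and other inflammatory chemokines, differed by less than its spread and changed direction with the arrays used. It measured 10.33, 9.54, 10.02, 10.40, 9.69, 9.63, 10.35 and 9.63 in tumoral 1 to 8. The peritumoral values were 9.99, 10.004, 10.16, 8.88, 10.19, 10.04, 9.82 and 9.78. Tumoral 1, 4 and 7 lay above every peritumoral array, and tumoral 2, 5, 6 and 8 below every peritumoral array except peritumoral 4. Tumoral arrays averaged 9.95 ± 0.37 and peritumoral arrays 9.86 ± 0.42 (SD, n = 8 each), a difference of 0.09 (95% confidence interval -0.29 to 0.47; limma adjusted p = 0.886; exact permutation p = 0.675). Without peritumoral 4 the difference was -0.05 (exact permutation p = 0.745). The 3 highest Ccr1 values were those of the tumoral arrays of the third set.

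Cx3cr1 encodes the receptor for fractalkine and marks patrolling monocytes and several tissue macrophages. Its values were 10.68, 10.61, 10.61, 10.84, 10.95, 10.59, 10.59 and 10.61 in tumoral 1 to 8. In peritumoral 1 to 8 they were 10.79, 10.48, 10.77, 9.97, 10.23, 10.84, 10.54 and 10.43. No tumoral array was below 10.59, whereas 5 of the 8 peritumoral arrays were. The means of 10.69 ± 0.14 in tumoral and 10.51 ± 0.30 in peritumoral arrays (SD, n = 8 each) differed by 0.18 (95% confidence interval -0.05 to 0.41; limma adjusted p = 0.538; exact permutation p = 0.146). Without peritumoral 4 the difference was 0.10 (exact permutation p = 0.295).

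Ccr7, the lymph node homing receptor of mature dendritic cells, varied more across the arrays than most genes. Over all 16 arrays its values split by the sets of deposited places, while the means of the labels were nearly equal. Within the third set its tumoral values lay above its peritumoral values, as given below. Its SD over 16 arrays stood at the 94.5th percentile of all genes, and at the 96.9th without peritumoral 4. It measured 11.51, 12.17, 11.94, 11.33, 12.21, 12.25, 11.90 and 12.30 in tumoral 1 to 8. In peritumoral 1 to 8 it measured 12.38, 12.36, 10.99, 12.05, 12.02, 11.10, 12.30 and 12.13. Each group held both low and high arrays. The means were nearly equal, at 11.95 ± 0.36 in tumoral and 11.92 ± 0.56 in peritumoral arrays (SD, n = 8 each), a difference of 0.04 with a 95% confidence interval of -0.41 to 0.48 (limma adjusted p = 0.969; exact permutation p = 0.868). Ccr7 lay between 10.99 and 11.90 in the 5 arrays of the third set, and between 11.94 and 12.38 in the other 11. It was the only 1 of the 8 receptors whose values in the third set did not overlap those of the other arrays, all lower, as in 3.60% of all genes.

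Some of the genes that mature dendritic cells express together with Ccr7 were also low in the third set. Of 15 such genes, 14 had the higher mean in tumoral arrays and 1 the lower, with a median difference of 0.08, and 0 passed the test. In the third set, 5 of the 15 lay below the range of the other 11 arrays, against the 3.60% of all genes given above, and the other 10 did not. The 5 were the chemokine genes Ccl22 and Ccl17, the maturation marker Cd83, the survival gene Birc3 and the interleukin-12 subunit gene Il12b. These 5 are named for having that pattern. Ccl22, a ligand of CCR4, ranged from 10.35 to 11.30 in those arrays and from 11.68 to 12.39 in the other 11. The summed level of the 15 genes ran from 152 to 166 in tumoral arrays and from 149 to 164 in peritumoral arrays. The 3 genes of the list with the smallest unadjusted p were Marcksl1, which encodes a regulator of the actin cytoskeleton, at 0.69 (limma adjusted p = 0.339), Cd40, a co-stimulatory receptor gene, at 0.30, and Socs2, a cytokine signalling inhibitor gene, at 0.15. Markers of conventional dendritic cells were low in the third set, with Flt3 at 8.73 to 9.25 against 9.39 to 10.45 in the other 11, and Irf4 at 8.77 to 9.39 against 9.88 to 10.66. General macrophage markers were high there, with Trem2 at 10.37 to 10.74 against 8.67 to 10.18. Of the other myeloid lists, 3 of 9 alveolar macrophage markers and 3 of 11 monocyte markers lay below the range of the other 11 arrays in the third set, and 0 above it. Type 1 dendritic cell markers did not follow, with 0 of 8 below that range. Lung epithelium (4 of 10) and B cell markers (3 of 7 tested) also had genes below it. The part of these other genes in the Ccr7 values was not tested.

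**Figure D3:**
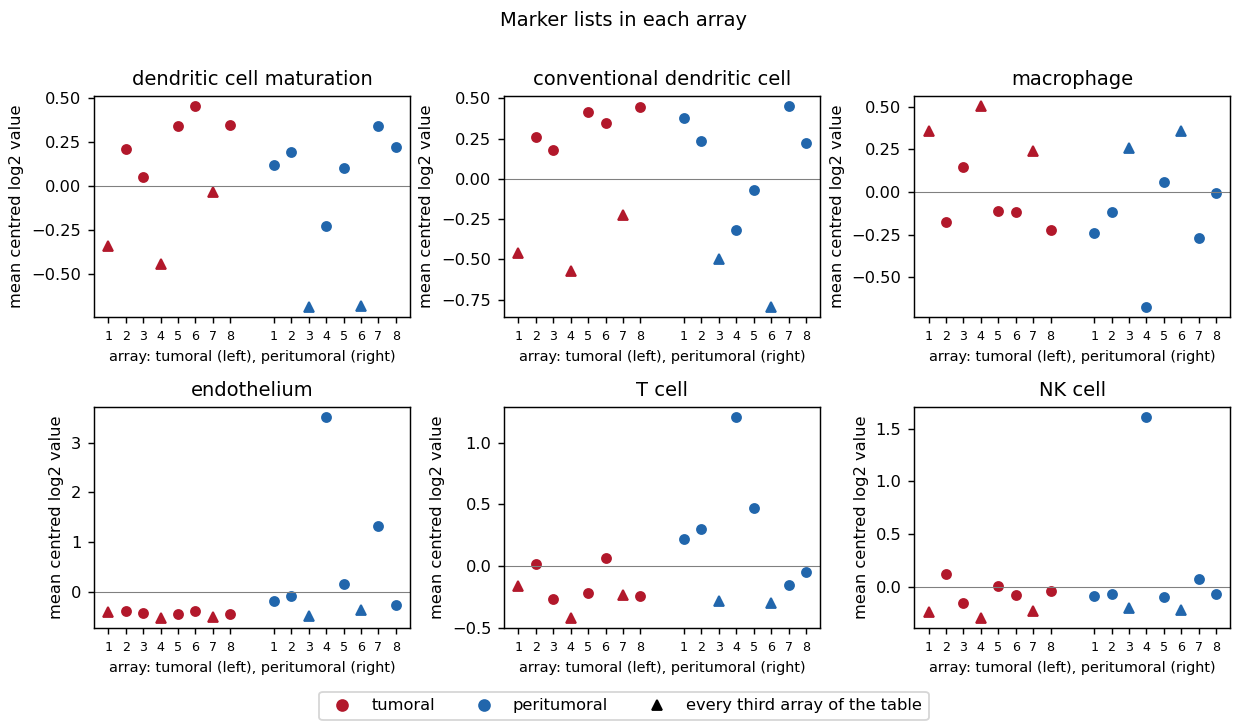
Mean centred log2 value (vertical axis; each gene's log2 values are centred on their mean over 16 arrays and then averaged over the list) of 6 gene lists in tumoral 1 to 8 (red, left) and peritumoral 1 to 8 (blue, right), each panel on its own scale. Triangles, the arrays of the third set, lie low for conventional dendritic cell markers (-0.79 to -0.22) and high for general macrophage markers (0.24 to 0.51), and peritumoral 4 is highest for endothelium (3.52).

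Ccrl2 binds chemerin and presents it to cells that carry the signalling chemerin receptor, and myeloid cells induce it on activation. It measured 12.08, 11.91, 12.16, 12.02, 12.05, 12.09, 12.12 and 12.06 in tumoral 1 to 8. The peritumoral values were 12.33, 12.21, 11.66, 11.62, 11.99, 11.79, 12.14 and 12.01. The tumoral arrays were tightly grouped and lay inside the peritumoral range. Tumoral arrays averaged 12.06 ± 0.07 and peritumoral arrays 11.97 ± 0.26 (SD, n = 8 each), with a difference of 0.09 (95% confidence interval -0.10 to 0.29; limma adjusted p = 0.720; exact permutation p = 0.342). Without peritumoral 4 the difference was 0.04.

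Cxcr4, the receptor for CXCL12 that retains leukocytes in bone marrow and other CXCL12-rich tissue, came closest of the 8 to a difference between the labels. It measured 11.61, 11.62, 11.71, 11.63, 11.71, 11.69, 11.53 and 11.66 in tumoral 1 to 8. In peritumoral 1 to 8 it measured 11.69, 11.66, 11.28, 11.28, 11.41, 11.20, 11.69 and 11.62. Peritumoral 3, 4, 5 and 6 lay below every tumoral array, and the other 4 peritumoral arrays lay within the tumoral range. The means were 11.64 ± 0.06 in tumoral and 11.48 ± 0.21 in peritumoral arrays (SD, n = 8 each). The difference of 0.16 had a 95% confidence interval whose lower end touched 0 and whose upper end was 0.33 (limma adjusted p = 0.434; exact permutation p = 0.0577). Without peritumoral 4 it was 0.14 (exact permutation p = 0.112). With the sets of deposited places as a block it was 0.19 (95% confidence interval 0.05 to 0.33; limma unadjusted p = 0.0119, adjusted p = 0.148). At that setting 19.1% of all genes had an unadjusted p under 0.05, and 0 genes passed after adjustment.

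Cxcr3, the receptor for the interferon-induced chemokines CXCL9, CXCL10 and CXCL11, is best known from T and NK cells. It measured 6.84, 7.20, 6.98, 6.93, 7.32, 7.04, 6.75 and 7.27 in tumoral 1 to 8. In peritumoral 1 to 8 it measured 7.03, 7.07, 6.60, 7.06, 6.86, 6.87, 7.07 and 7.05. Of its 5 lowest values 4 were in the third set. Tumoral arrays averaged 7.04 ± 0.21 and peritumoral arrays 6.95 ± 0.17 (SD, n = 8 each), and the difference of 0.09 had a 95% confidence interval of -0.10 to 0.28 (limma adjusted p = 0.733; exact permutation p = 0.361). Among T cell markers, of which 8 of 10 were tested, the summed level ran from 54.8 to 58.7 in tumoral arrays and from 55.8 to 67.9 in peritumoral arrays. Cd3g, a subunit of the T cell receptor complex, averaged 5.61 in tumoral and 6.54 in peritumoral arrays. No T cell marker passed (smallest limma adjusted p = 0.321). The median difference of the list was -0.42, or -0.26 without peritumoral 4. The highest T cell level was that of peritumoral 4, where Cxcr3 was 7.06 and within the range of the other arrays. Cxcr3 sat close to the dim range, and the part of T cell markers in its values was not tested.

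Ccr6, the receptor for CCL20 found on B cells, some T cells and dendritic cells near epithelium, was the 1 receptor with a lower tumoral mean. It measured 6.73, 6.45, 6.73, 6.56, 6.64, 6.69, 6.82 and 6.59 in tumoral 1 to 8. The peritumoral values were 6.31, 7.10, 6.78, 6.89, 6.84, 6.60, 6.40 and 6.70. Its lowest and highest values were both peritumoral. The means of 6.65 ± 0.12 in tumoral and 6.70 ± 0.26 in peritumoral arrays (SD, n = 8 each) differed by -0.05 (95% confidence interval -0.26 to 0.16; limma adjusted p = 0.884; exact permutation p = 0.631). The direction turned to 0.0030 when arrays were centred on their medians. B cell markers (7 of 8 tested) had summed levels of 41.6 to 48.1 in tumoral arrays and 41.1 to 61.6 in peritumoral arrays, and their part in the Ccr6 values was not tested.

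The comparison was also made within each set of deposited places, a split chosen after the values were seen. Within the third set (3 tumoral, 2 peritumoral), Cxcr4 was higher in tumoral arrays by 0.35 (95% confidence interval 0.15 to 0.54; limma adjusted p = 0.0419) and Ccrl2 by 0.35 (0.15 to 0.55; adjusted p = 0.0458). Both passed the threshold, as did 7.72% of all genes in these arrays. Cxcr4 measured 11.61, 11.63 and 11.53 in tumoral 1, 4 and 7, against 11.28 and 11.20 in peritumoral 3 and 6. Ccrl2 measured 12.08, 12.02 and 12.12 in the same tumoral arrays, against 11.66 and 11.79 in the same peritumoral arrays. Ccr7 differed there by 0.54 (0.21 to 0.87; adjusted p = 0.0569) and Ccr1 by 0.26 (0.06 to 0.46; adjusted p = 0.106). An exact permutation test of so few arrays cannot give a p below 0.1. Within the first set (3 tumoral, 3 peritumoral) Cxcr4 differed by 0.11 and Ccrl2 by -0.02, and within the second (2 tumoral, 3 peritumoral) by 0.14 and 0.05, with 0 genes called in either. The test of the difference between the 3 sets, a label by place interaction, gave an adjusted p of 0.9997 for every receptor (limma), so that the effects were not shown to differ between sets. It called 6 of 19938 genes.

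**Figure D4:**
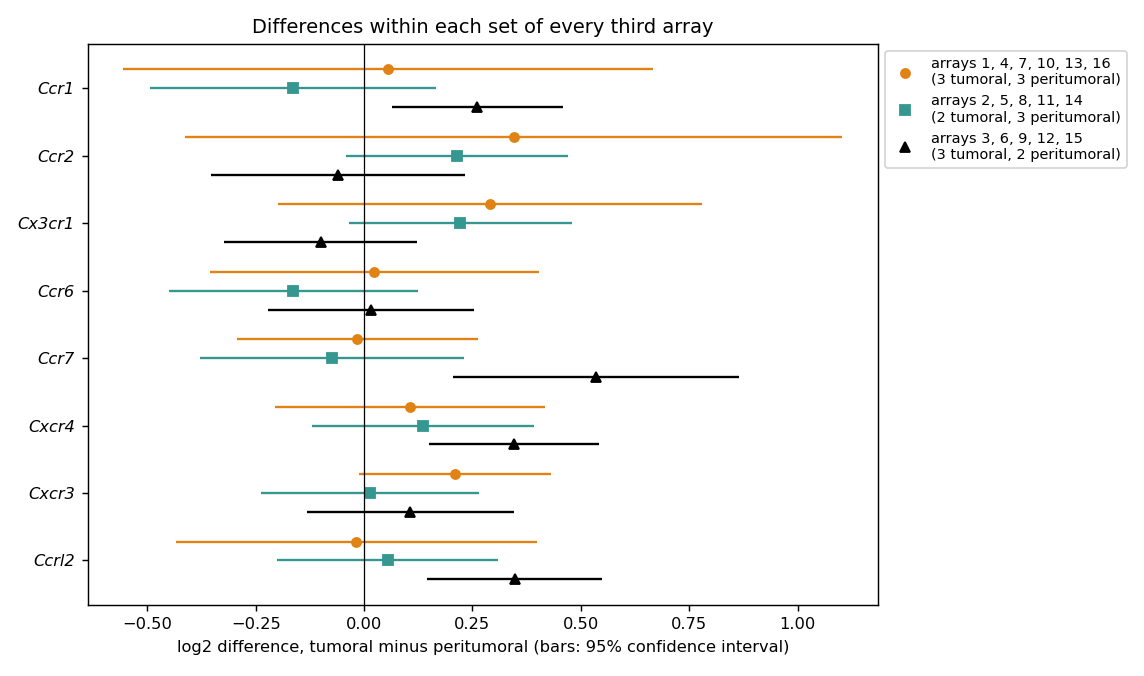
Difference of each receptor between tumoral and peritumoral arrays (horizontal axis, log2; bars, 95% confidence intervals from limma) within the first (orange circles), second (teal squares) and the third (black triangles) set of deposited places. The intervals of Cxcr4, Ccrl2, Ccr7 and Ccr1 lie above 0 within the third set, and those of the other 2 sets include 0 for all 8 receptors.

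The promoter windows of Cxcr4 and Ccrl2, the pair of receptors that passed in those arrays, are shown 5′ to 3′ for the regulatory letters in front of them. Each spans 250 bases before to 50 bases after an annotated start, from RefSeq on GRCm38.p6. Capitals mark motif matches on either strand. The Cxcr4 window is chr1:128592250-128592549 (minus strand), and the Ccrl2 window chr9:111057469-111057768 (minus strand) is the one of its 3 annotated windows that lies farthest upstream.
Cxcr4: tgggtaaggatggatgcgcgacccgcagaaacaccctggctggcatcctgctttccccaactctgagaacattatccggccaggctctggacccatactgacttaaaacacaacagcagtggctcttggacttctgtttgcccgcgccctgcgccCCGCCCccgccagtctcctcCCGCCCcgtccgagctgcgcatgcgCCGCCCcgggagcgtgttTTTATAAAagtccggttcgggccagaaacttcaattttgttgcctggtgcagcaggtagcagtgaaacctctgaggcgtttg
Ccrl2: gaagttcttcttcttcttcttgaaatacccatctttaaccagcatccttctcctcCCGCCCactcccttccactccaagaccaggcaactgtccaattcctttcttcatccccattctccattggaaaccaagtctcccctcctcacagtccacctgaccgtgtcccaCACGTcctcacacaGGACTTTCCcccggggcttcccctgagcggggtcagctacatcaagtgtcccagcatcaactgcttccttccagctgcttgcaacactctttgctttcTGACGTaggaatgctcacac
The searched motifs were a kappaB core (GGACTTTCC), AP-1 (TGANTCA), a CRE core (TGACGT), a hypoxia response core (ACGTG), an ISRE core (GAAA, any 2 bases, GAAA), a GC box (GGGCGG) and a TATA box (TATAAA). They occurred in 0.344%, 7.81%, 7.51%, 19.6%, 3.44%, 35.7% and 13.6% of 32851 windows of 300 bases. The Cxcr4 window held 3 GC boxes, at -95, -75 and -50 from the start, and overlapping TATA box matches on both strands at -32 and -30. The Ccrl2 window held a kappaB core at -68, a hypoxia response core at -82, a GC box at -195 and a CRE core at 30. The other Ccrl2 windows, not shown, overlap the one shown and each other. They held no kappaB core and no GC box. Their CRE core is the same stretch as the one in the window shown. They share a hypoxia response core, which is a different stretch from the one at -82. Windows were matched for 7 of the 8 receptors. None of the 7 motifs was found in the windows of Ccr1, Ccr2, Cx3cr1 and Cxcr3, and 1 of the 2 Ccr6 windows held a hypoxia response core. A match is a description of letters and not a site.

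Among the 28 pairs of receptors, which correlations passed depended on the arrays used. Over all 16 arrays, which fall into separate sets, 2 pairs passed 0.05 after adjustment over the pairs in both measures. The permutation treats arrays as interchangeable, which arrays in such sets are not. Its p-values therefore do not test a link between receptors apart from the sets and from single outlying arrays. Cxcr4 and Ccrl2 had a Pearson's r of 0.84 (permutation p = 0.00025, adjusted 0.00700) and a Spearman's rho of 0.75 (permutation p = 0.00133, adjusted 0.0127), and r was 0.77 without the 2 arrays farthest from the median of Cxcr4. Within the labels their r was 0.12 in the 8 tumoral and 0.91 in the 8 peritumoral arrays. Ccr7 and Cxcr3 had an r of 0.73 (permutation p = 0.00084, adjusted 0.0118) and a rho of 0.75 (permutation p = 0.00136, adjusted 0.0127), and r was 0.59 without the 2 arrays farthest from the median of Ccr7. Over the 11 arrays outside the third set r was 0.40 for Ccr7 and Cxcr3 and 0.81 for Cxcr4 and Ccrl2. A narrower choice, made after the values were seen, used the 10 arrays outside the third set and without peritumoral 4. There r was 0.40 and 0.50 for these pairs, neither of which passed, and Ccr2 and Cxcr4 were the pair that passed in both measures, with r at 0.80 (permutation p = 0.00014, adjusted 0.00392) and rho at 0.99 (permutation p = 2.00e-05, adjusted 0.00056). Over all 16 arrays Ccr2 and Cxcr4 did not pass (r 0.40, permutation p = 0.132, adjusted 0.285; rho 0.27, permutation p = 0.311, adjusted 0.511), and within the tumoral arrays their r was -0.08. No pair passed in both choices of arrays. Ccr1 and Cxcr3 ran opposite ways and passed over all 16 arrays by rho only. There rho was -0.79 (permutation p = 0.00039, adjusted 0.0109) and r was -0.61 (permutation p = 0.0116, adjusted 0.0651). Within each label their rho was -0.71. Over the 11 arrays outside the third set r was -0.38. Over the 10 arrays r was -0.77 and rho -0.67, and neither passed (permutation, adjusted 0.0887 and 0.281).

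For each receptor, the 3 genes most like it over the 16 arrays were taken from the 9969 genes above the median mean, by Pearson's r, as a description without a test, since the sets of arrays weigh on these values too. Ccr7 was most like Rel, an NF-kappaB subunit gene (0.97), Nr4a3, an orphan nuclear receptor gene (0.97), and Ccl22 (0.97), and over the 11 arrays outside the third set these values were 0.74, 0.73 and 0.84. Ccr1 was most like Fcer1g, the Fc receptor gamma chain gene (0.96), the acid ceramidase gene Asah1 (0.94) and Lpcat2, a phospholipid acyltransferase gene (0.94). Without peritumoral 4 these values were 0.92, 0.91 and 0.88, and the 3 genes ranked only 18, 42 and 231 in likeness to Ccr1. Ccr2 was most like the leukotriene receptor gene Cysltr1 (0.96), the syntaxin gene Stx7 (0.95) and Tent2 (0.93), and these values were 0.74, 0.65 and 0.69 without peritumoral 4. Cxcr4 was most like Tent5c (0.96), Ifrd1 (0.93) and Rgs1 (0.93), the last of which encodes an inhibitor of signalling by chemokine receptors. Ccrl2 was most like Itgax (0.89), Runx3 (0.86) and Stk38l (0.85). Cx3cr1 was most like Acin1 (0.91), Mvb12b (0.90) and Abcg3 (0.89), and Cxcr3 like Slco2b1 (0.89), Ildr1 (0.89) and Map3k5 (0.89). The lowest likeness was that of Ccr6, with Olr1 at 0.75, Atp11a at 0.74 and Csf1 at 0.73.

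Chemokine receptors outside the 8 were mostly dim and lower on average in tumoral arrays, and none passed. Of 11 other signalling receptors tested, 2 were higher and 9 lower, with a median difference of -0.17 against -0.02 over all genes and 0 called. Without peritumoral 4, which had the highest summed level of this list, the median was -0.11. Markers of several other cell types were lower on average in tumoral arrays as well. Not all were, as 9 of 11 general macrophage and 8 of 10 conventional dendritic cell markers were higher. All 12 neutrophil markers were lower, with a median of -0.50, or -0.29 without peritumoral 4. Their summed levels were 75.9 to 84.3 in tumoral and 77.9 to 97.3 in peritumoral arrays, with peritumoral 4 and 5 the highest. Of 8 tested T cell markers 7 were lower, with a median of -0.42, or -0.26 without peritumoral 4. The part of these markers in the receptor values was not tested. The 3 receptors with the smallest unadjusted p were Ccr8 (-0.17), a receptor of regulatory and type 2 T cells, Cxcr1 (-0.18), a neutrophil receptor, and Ccr4 (-0.26), the receptor for CCL17 and CCL22. The 6 atypical and related receptors divided into 1 higher and 5 lower, with a median of -0.09. Among them the scavenging receptor genes Ackr3, Ackr2 and Ackr4 differed by -0.20, -0.38 and -0.15, with limma adjusted p-values of 0.456, 0.473 and 0.479. Ackr2 measured 8.25 in peritumoral 4, and its difference was -0.19 without that array. The 1 higher was the chemerin receptor gene Cmklr1, which measured 9.77 ± 0.42 in tumoral and 9.63 ± 0.35 in peritumoral arrays (SD, n = 8 each). It lay between 9.99 and 10.41 in the third set and between 9.08 and 9.85 in the other 11, the opposite order to Ccr7.

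**Figure D5:**
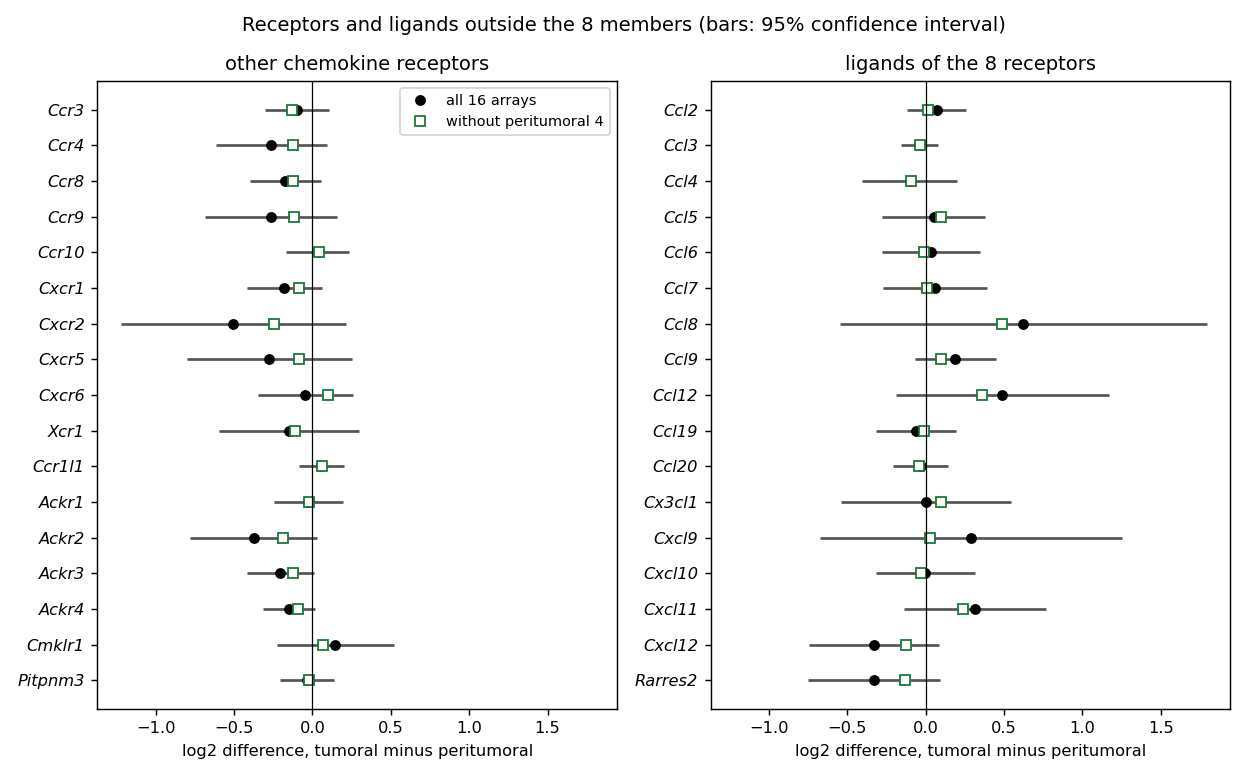
Difference between tumoral and peritumoral arrays (horizontal axis, log2) of other chemokine receptors, with atypical and related ones below (left panel), and of the ligands of the 8 receptors (right panel). Black circles use all 16 arrays, with 95% confidence intervals from limma as bars, and green squares leave out peritumoral 4. Every interval includes 0, and the differences of Ackr2, Cxcl12 and Rarres2 lie nearer to 0 without that array.

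Ligands of the 8 receptors did not differ between the labels beyond the spread of the arrays. Of 18 ligand genes 17 were tested, with 10 higher, 7 lower, a median difference of 0.03 and 0 called. Ccl9, a CCR1 ligand, averaged 11.73 ± 0.20 in tumoral and 11.54 ± 0.31 in peritumoral arrays (SD, n = 8 each), a difference of 0.19 (limma adjusted p = 0.565). Cxcl12, the CXCR4 ligand of stromal cells, averaged 6.19 ± 0.13 in tumoral and 6.52 ± 0.60 in peritumoral arrays. Its difference of -0.33 was -0.12 without peritumoral 4, where it reached 7.98. Rarres2, which encodes chemerin, differed by -0.33 and by -0.13 without that array, where it reached 7.96. Summed endothelial marker levels ran from 66.7 to 68.1 in tumoral arrays and from 67.0 to 107 in peritumoral arrays (10 of 10 tested), with peritumoral 4 the highest, and their part in these ligand values was not tested. In the third set Ccl9 and the CCR2 ligand gene Ccl12 lay above the range of the other 11 arrays, and the fractalkine gene Cx3cl1, Ccl20 and Cxcl12 below it, 2 above and 3 below of 17, beside 8.37% above and 3.60% below over all genes.

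Among gene lists other than cell type markers, genes that carry the receptor signal to the cytoskeleton or end it held the smallest p-values. Of 23 such genes 22 were tested, with 14 higher, 8 lower, a median of 0.03 and 0 called. At an unadjusted p under 0.05 there were 5, 3 higher and 2 lower, beside 11.5% of all genes. Arrb2, which encodes the arrestin that desensitises and internalises receptors, averaged 10.88 ± 0.12 in tumoral and 10.54 ± 0.30 in peritumoral arrays (SD, n = 8 each). The difference of 0.34 had a limma adjusted p of 0.277, and it was 0.25 without peritumoral 4. Rac2, a GTPase of leukocyte movement, differed by -0.18 (adjusted p = 0.287), and Grk6, a kinase that phosphorylates active receptors, by -0.22 (adjusted p = 0.323). Rgs1 averaged 12.17 ± 0.05 in tumoral and 11.85 ± 0.35 in peritumoral arrays, a difference of 0.32 (adjusted p = 0.331), and resembled Cxcr4 in that the tumoral arrays were tightly grouped. Within this list Dock2, Grk3 and Grk5 lay below the range of the other 11 arrays in the third set, and Rgs19 above it, 3 below and 1 above of 22, beside 3.60% below and 8.37% above over all genes.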

How the data were processed

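The labels' protocols describe miRNeasy extraction of total RNA, amplification with an Ambion kit and biotin labelling with Affymetrix reagents. The authors deposited 28853 probe sets by 16 arrays, read as log2 values because they run from 2.31 to 14.33. Neither log base nor normalization is given in the sources used here. Array medians lay between 6.75 and 6.95. No probe detection calls or scan batches were used here, and precision is limited by how many arrays there were.

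Probe sets with 1 symbol (21789) were kept, the brightest per gene, which left 19938 genes. Another 1621 had several symbols and 5443 none. limma 3.58.1 in R 4.3.3 (lmFit, eBayes, label only, two-sided) was run on all genes, tested on simulated data, and adjusted by Benjamini-Hochberg at 0.05. Exact permutation tests of the receptors, two-sided, used all 12870 assignments of the labels. The receptors and gene lists were chosen with earlier results of these data known. Named were all receptors, the 3 genes with the smallest unadjusted p of each pathway list, up to 2 per marker list, 3 sort genes, and the 3 genes most like each receptor; others were chosen after their values were seen. Of the pathway lists, Grk2, with no named probe set found, and Ccl21a, with several symbols, were not tested, and 1 gene is not reported here. Alternatives were normalization, filters, weights, replicate number as a block, arrays left out and a rank-sum test. The deposited place as a block or split was added after the data were seen.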

Additional observations from a re-analysis of the deposited data

Results flagged for a closer look

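In each of the 16 sets of 8 arrays (8 receptors, tumoral and peritumoral), the gap between an extreme array and its nearest neighbour was divided by the range and compared with Dixon's critical value. Chance flags about 1 in 20 such sets, and 3 of 16 stood out, all peritumoral. Ccr1 measured 8.88 in peritumoral 4, with the next peritumoral value at 9.78 (gap over range 0.689). Ccr2 measured 10.04 in peritumoral 4, with the next at 11.07 (0.729). Both values are of the array with the highest endothelial (3.52) and alveolar macrophage (1.37) and the lowest general macrophage (-0.67) marker level. Cxcr3 measured 6.60 in peritumoral 3, with the next at 6.86 (0.557), and that array belongs to the third set of deposited places.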

How the results depend on the processing

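Of 270 alternative values of the receptor differences, 243 kept direction and side of the threshold, 25 changed sign and 2 newly passed. The 243 overstate stability, because some settings change only the error or the adjustment and could not change the sign. These are the replicate blocks, the gene filter, the variance model, the mean of all probe sets and the exact permutation test. The fit without peritumoral 4 is also counted more than once. Leaving out 1 array at a time gave ranges of -0.048 to 0.15 for Ccr1, 0.03 to 0.23 for Ccr2, 0.10 to 0.23 for Cx3cr1, -0.11 to 0.0067 for Ccr6, -0.10 to 0.12 for Ccr7, 0.12 to 0.19 for Cxcr4, 0.04 to 0.13 for Cxcr3 and 0.04 to 0.14 for Ccrl2, with limma adjusted p-values of 0.269 to 0.999. Without peritumoral 4, Ccr1 was -0.048, without peritumoral 4 and 7 it was -0.078, and with the deposited place as a block and without peritumoral 4 it was -0.063, with Ccr6 at 0.019. Ccr7 was -0.015 by quantile normalization, -0.017 by cyclic loess, -0.050 with array weights and -0.083 as the shift of the rank-sum test. Ccr6 was 0.0030 with arrays centred on their medians and 0.0087 with array weights. Within deposited places, Ccr6 was 0.024 (the first set) and 0.015 (the third), Ccr7 -0.016 (the first) and -0.075 (the second), Ccrl2 -0.018 (the first) and 0.35 (the third), Ccr1 -0.16 (the second), Ccr2 -0.060, Cx3cr1 -0.10 and Cxcr4 0.35 (the third), where 2 receptors were called. The cause of these changes was not tested, and the splits hold fewer arrays. Of all genes, 0 were called over all 16 arrays (2292 at an unadjusted p under 0.05; rank-sum test 0 and 2307). Calls ranged from 0 to 128 when 1 array was left out, with 128 without peritumoral 7 and 20 without peritumoral 8. There were 88 without peritumoral 4 and 7, 8 with the place as a block and without peritumoral 4, and 1539 within the third set. Whether replicate numbers pair the samples could not be decided, because same-numbered arrays always fall in different sets of deposited places. The deviations of same-numbered arrays correlated between -0.56 and 0.29, above 0.1 in 3 of 8 pairs, and 1 number correlated best with its own. The fit with the replicate block called 0 genes (1985 below 0.05 before adjustment), and it gave Cxcr4 a difference of 0.16 (adjusted p = 0.545). Of 72 repeats of the likeness values, 7 moved by 0.2 or more: those of the 3 genes with Ccr2 without peritumoral 4 and of Rel and Nr4a3 with Ccr7 outside the third set, all given above, Stx7 with Ccr2 by Spearman's rho (0.68) and Runx3 with Ccrl2 by rho (0.64). Ccr6 and Cxcr3 have no value among genes above the median mean only.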
